A study of Mus musculus with 24 samples.

Results

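AMP-activated protein kinase (AMPK) is built from 3 kinds of subunit, and the mouse genes that encode them were followed here through 24 RNA-sequencing libraries of immortalized (3T3) mouse embryonic fibroblasts (MEFs). The members are all 7 subunit genes by symbol, 7 of the 55471 genes counted: *Prkaa1* and *Prkaa2*, which encode the catalytic α subunits α1 and α2, *Prkab1* and *Prkab2*, which encode the β subunits β1 and β2, and *Prkag1*, *Prkag2* and *Prkag3*, which encode the γ subunits γ1, γ2 and γ3. All 7 were among the 17522 genes that passed the filter on low counts and were tested. The cells were wild type, deficient in *Lkb1* (the gene *Stk11*; Lkb1-/-), or deficient in both *Lkb1* and *Crtc2* as 2 separate clones, A1 and A2 (Lkb1-/-/Crtc2-/-). The clones were grown from single sorted cells of the Lkb1-/- line after CRISPR editing with guides to the first exon of *Crtc2*, so each clone is 1 editing outcome, and the wild-type and Lkb1-/- cells are likewise 1 line each. Each of the 4 genotypes was sequenced untreated and after 6 h of interleukin-1β (IL-1β), with 3 libraries in each of the 8 groups. The labels number the libraries 1 to 3 without saying that they came from separate cultures, so the p-values below measure the spread between these libraries, which may be technical.

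AMPK is a sensor of cellular energy. The α subunit carries the kinase, the β subunit holds the complex together and binds glycogen, and the γ subunit binds AMP, ADP and ATP. LKB1 phosphorylates the activation loop of the α subunit and is the main upstream kinase of AMPK in most cells, and the same kinase activates the salt-inducible kinases that keep the CREB coactivator CRTC2 out of the nucleus. The α1, β1 and γ1 proteins are widely expressed, whereas α2, β2 and γ3 are best known from skeletal muscle.

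The read pairs assigned to genes numbered between 38842901 and 48594394 per library (median 42431965), and levels are given below as CPM (counts scaled to library size), normalized by the trimmed mean of M-values (TMM). *Stk11* lay between 83.4 and 87.9 CPM in the wild-type libraries and between 16.3 and 23.2 CPM in all 18 others. *Crtc2* lay between 79.1 and 84.6 CPM in Lkb1-/- MEFs, between 56.5 and 68.5 CPM in wild-type MEFs and between 41.1 and 56.4 CPM in the clones, and since the guides cut in the first exon the remaining mRNA does not check the protein. The paper states that knockout in its edited clones was checked by western blotting. Of 10 fibroblast markers *Thy1* and *Lum* were under 1 CPM in every group, and the summed level of the 10 lay between 5716 and 9935 CPM. Single markers differed widely between the lines: untreated, *Pdgfra* averaged 4.58 in the wild-type line and 342 in the Lkb1-/- line (CPM), *Dcn* 0.411 and 218, and *Col1a2* 780.1 and 63.0. *Ptprc*, the leukocyte marker, did not pass 0.0247 CPM in any library, and the summed epithelial and endothelial markers stayed at or under 0.447 and 0.200 CPM.

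The main γ subunit genes differed between wild-type and Lkb1-/- MEFs. *Prkag1* (chr15:98812797-98831521, minus strand, GRCm38) was higher in every library of the 3 *Lkb1*-deficient genotypes than in any wild-type library. These are bulk libraries, so a change in every cell and a change in the share of cells that express a gene cannot be told apart. In wild-type MEFs its levels were 49.7, 50.6 and 54.1 CPM untreated and 51.7, 50.4 and 53.8 CPM after IL-1β. In Lkb1-/- MEFs they were 89.4, 97.0 and 99.0 CPM untreated and 91.2, 94.0 and 99.2 CPM after IL-1β. The groups were far apart, and neither line had a called change with IL-1β. Untreated clone A1 gave 97.5, 101 and 105 CPM and untreated clone A2 gave 105, 108 and 122 CPM. After IL-1β the clones gave 94.8, 103 and 105 CPM in A1 and 95.1, 102 and 117 CPM in A2. Both clones stayed above every wild-type library, in A2 with a wider spread among libraries.

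The product of *Prkag2*, γ2, is the subunit mutated in an inherited heart disease with glycogen storage. *Prkag2* had the opposite order between wild-type and Lkb1-/- MEFs and in the untreated clones. After IL-1β it was not called between either clone and wild-type MEFs, with means of 22.95 CPM in A1 and 20.19 CPM in A2 against 22.46 CPM. In wild-type MEFs (gene at chr5:24862744-25100642, minus strand) it measured 31.1, 29.7 and 28.2 CPM untreated and 23.9, 22.9 and 20.6 CPM after IL-1β. In Lkb1-/- MEFs it measured 20.1, 21.6 and 21.6 CPM untreated and 18.9, 17.8 and 16.6 CPM after IL-1β. Untreated wild-type libraries were the highest of all 24, and within both genotypes the treated libraries lay below all untreated ones. Clone A1 measured 23.3, 23.6 and 24.01 CPM untreated and 23.98, 21.5 and 23.4 CPM after IL-1β, and these ranges overlapped. Clone A2 measured 22.2, 23.1 and 25.2 CPM untreated and 19.5, 19.6 and 21.5 CPM after IL-1β, with no overlap. *Prkag2* overlaps the exons of 2 antisense genes, but read pairs on its opposite strand came to 1.71% of those on both strands together over the 24 libraries, the largest share among the members. *Prkag1* (with *B130046B21Rik*) and *Prkab2* (with *Gm17651*) also have such an overlap, with 0.289% and 0.170% of pairs on the opposite strand.

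The 250 bases upstream of the annotated starts are shown for *Prkag1* and *Prkag2*, which moved apart with genotype, and for *Prkaa2*, the α gene that was called between untreated Lkb1-/- and wild-type MEFs, because CRTC2 acts through CREB and CREB binds the cAMP response element (CRE). They come from RefSeq (GRCm38.p6), which held promoter windows for all 7 members, 9 windows in all with 3 for *Prkag2*, of which the outermost is shown. Capitals mark the CRE half-site TGACG and the CCAAT box on either strand (CGTCA is the half-site read on the other strand).
Prkag1 (chr15:98831509-98831758, minus strand): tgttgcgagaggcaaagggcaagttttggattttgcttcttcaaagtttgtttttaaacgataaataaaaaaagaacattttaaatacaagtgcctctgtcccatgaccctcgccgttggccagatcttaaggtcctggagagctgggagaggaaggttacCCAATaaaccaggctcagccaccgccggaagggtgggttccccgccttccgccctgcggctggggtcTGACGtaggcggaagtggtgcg
Prkag2 (chr5:25100643-25100892, minus strand): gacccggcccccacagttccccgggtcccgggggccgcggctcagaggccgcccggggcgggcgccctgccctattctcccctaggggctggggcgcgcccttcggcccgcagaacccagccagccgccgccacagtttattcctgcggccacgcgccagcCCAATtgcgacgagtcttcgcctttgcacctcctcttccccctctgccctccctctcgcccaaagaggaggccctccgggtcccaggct
Prkaa2 (chr4:105109899-105110148, minus strand): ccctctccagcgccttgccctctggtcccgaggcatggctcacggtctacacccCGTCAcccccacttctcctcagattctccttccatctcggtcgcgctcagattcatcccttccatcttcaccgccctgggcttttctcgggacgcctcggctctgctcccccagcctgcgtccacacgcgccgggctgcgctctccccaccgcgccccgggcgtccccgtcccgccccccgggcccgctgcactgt
The full CRE, TGACGTCA, was in none of the members' 9 windows, which run from 250 bases before to 50 after each start, and in 1.79% of the 32851 mouse windows of that length. The half-site began at position -22 from the start in *Prkag1* and at -196 in *Prkaa2*, and 20.8% of all windows hold it. CCAAT began at -89 in *Prkag1*, at -89 in the outermost *Prkag2* window, and 37.4% of all windows hold it. An overlapping pair of CCAAT matches, 1 on each strand, was in another *Prkag2* window. The E-box CACGTG and the κB consensus were in none of the 9 windows, against 7.15% and 8.46% of all windows. These letters were looked for after the expression values had been seen.

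**Figure D1:**
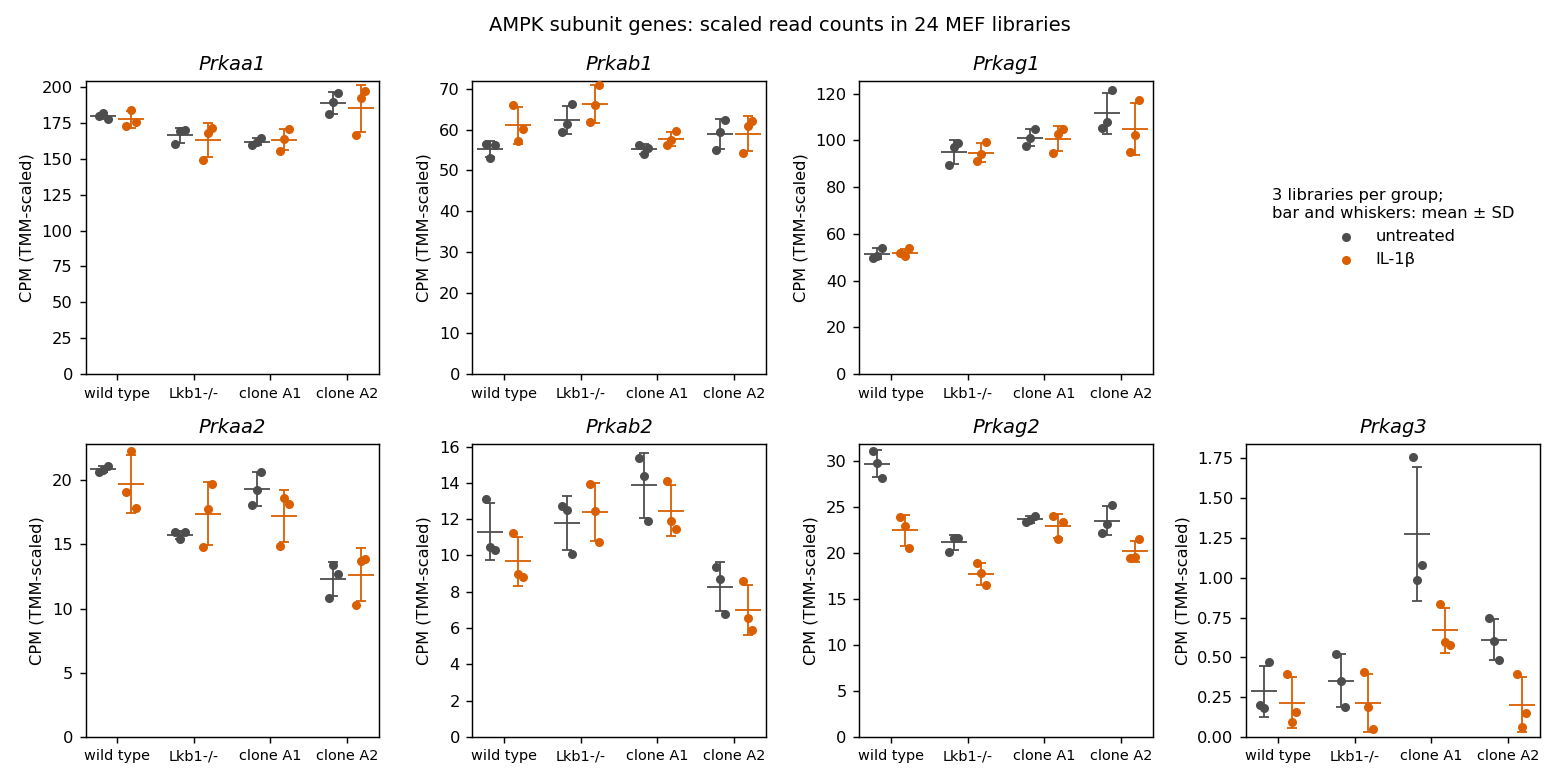
TMM-scaled CPM of the 7 AMPK subunit genes in 24 libraries, by genotype on the x axis, untreated in grey and IL-1β in orange; points are libraries, and the bar and whiskers are the mean ± SD of 3. *Prkag1* lies between 49.7 and 54.1 CPM in wild-type libraries and between 89.4 and 122 CPM in the others, and *Prkag3* stays under 2 CPM throughout.

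Both α genes and both β genes were expressed. *Prkaa1* varied least of the members, with group means between 162 CPM in untreated clone A1 and 189 CPM in untreated clone A2, a ratio of 1.17. *Prkab1* was about as even, with group means from 55.3 to 66.3 CPM, a ratio of 1.2. *Prkaa2* and *Prkab2* varied more between groups.

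*Prkaa2* (chr4:105029874-105109890, minus strand) measured 20.6, 20.8 and 21.1 CPM in untreated wild-type MEFs and 15.96, 15.4 and 15.9 CPM in untreated Lkb1-/- MEFs. Untreated clone A1 measured 18.1, 19.3 and 20.7 CPM and untreated clone A2 10.8, 13.4 and 12.7 CPM. Clone A2 was thus the lowest group and did not overlap any other untreated group. After IL-1β the libraries spread out, between 17.8 and 22.2 CPM in wild type, 14.8 and 19.7 in Lkb1-/-, 14.9 and 18.6 in A1 and 10.2 and 13.9 in A2. The first 3 of these ranges overlapped, and only A2 stood apart.

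*Prkab2* (chr3:97658193-97673812, plus strand) measured 13.1, 10.5 and 10.3 CPM in untreated wild-type MEFs and 12.7, 12.51 and 10.1 CPM in untreated Lkb1-/- MEFs, which overlapped. Untreated clone A1 measured 15.4, 14.3 and 11.9 CPM and untreated clone A2 9.37, 8.68 and 6.76 CPM, with every A2 library below every library of the other untreated groups. After IL-1β the ranges were between 8.79 and 11.2 CPM in wild type, 10.8 and 13.96 in Lkb1-/-, 11.4 and 14.1 in A1 and 5.90 and 8.56 in A2. In all 8 groups the library numbered 1 was the highest of its 3.

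*Prkag3* (chr1:74738922-74749221, minus strand) was close to the limit of detection, with 490 counts over the 24 libraries together. Untreated wild-type MEFs gave 0.201, 0.184 and 0.469 CPM and untreated Lkb1-/- MEFs 0.521, 0.348 and 0.191 CPM. Untreated clone A1 gave 1.76, 0.984 and 1.08 CPM, from 41 to 72 counts, and untreated clone A2 gave 0.745, 0.602 and 0.484 CPM, from 22 to 37 counts. Clone A1 was the highest group, and its library numbered 1 was the highest of all. After IL-1β the range was between 0.574 and 0.834 CPM in A1 and between 0.0480 and 0.408 CPM in the other 3 genotypes, where a library held between 2 and 18 counts. Beside *Prkag3*, the summed level of 8 skeletal muscle markers was between 0.643 and 0.720 CPM in untreated A1 and between 1.85 and 3.36 CPM in untreated wild-type MEFs, and *Myog* was at 0 in both groups. The wild-type sum was nearly all *Acta1*, at 2.20 CPM against 0.183 in A1, and *Tnnt3* was also higher there (0.0808 against 0.0160). The other 5 were higher in A1, with *Des* at 0.380 against 0.0781 CPM, *Myh3* at 0.0644 against 0.0315 CPM, and *Ckm*, *Myh1* and *Myod1* at or under 0.0234 CPM against 0. In untreated Lkb1-/- MEFs the sum was between 0.362 and 0.580 CPM, below every untreated A1 library. *Des* (0.380 against 0.310 CPM) and *Acta1* (0.183 against 0.132 CPM) were higher in A1 than in Lkb1-/- MEFs. *Myh3*, *Tnnt3*, *Ckm* and *Myh1* were also higher in A1, but at or under 0.0644 CPM in both. *Myod1* was level (0.00766 in A1 against 0.00755 CPM) and *Myog* was lower in A1 (0 against 0.0159 CPM). The part of these markers in the *Prkag3* differences was not tested.

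Per kilobase of exon, the only scale on which levels of different genes were compared, *Prkaa1*, *Prkag1* and *Prkab1* held the first 3 places in all 8 groups. In wild-type MEFs, untreated, *Prkaa1* led with 38.6 ± 0.432 CPM per kb (SD, n = 3), followed by *Prkag1* with 23.7 ± 1.09 and *Prkab1* with 18.04 ± 0.633. In the *Lkb1*-deficient genotypes *Prkag1* moved to the first place, with 43.7 ± 2.33 CPM per kb in untreated Lkb1-/- MEFs against 35.8 ± 1.14 for *Prkaa1*. The libraries of these 2 genes did not overlap in any group. *Prkag2* followed them in every group, between 2.74 and 4.58 CPM per kb, and overlapped the next gene, *Prkab2*, in IL-1β-treated Lkb1-/- MEFs. *Prkaa2* and *Prkab2* took the next 2 places, and their ranges overlapped in each of the 6 *Lkb1*-deficient groups. *Prkag3* was last, between 0.0550 and 0.346 CPM per kb in group means. As a share of the 2 α genes *Prkaa2* made up 6.35 ± 0.120% in untreated wild-type MEFs and 3.66 ± 0.300% in untreated clone A2. As a share of the γ genes *Prkag2* made up 16.2 ± 1.29% in untreated wild-type MEFs and 6.93 ± 0.0918% in untreated Lkb1-/- MEFs (SD, n = 3).

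To ask how loss of LKB1 went with subunit expression, Lkb1-/- MEFs were compared with wild-type MEFs in a fit over all 24 libraries. In untreated cells 4 of the 7 members were called at an FDR under 0.05, in a comparison in which 55.9% of all tested genes were called. The median log2 fold change of the 7 was 0.06, beside 0.04 over all genes tested. *Prkag1* rose 1.85-fold (log2 fold change 0.89 ± 0.07 SE, edgeR FDR = 1.2e-09). *Prkag2* fell by 0.49 in log2 units (SE 0.07, edgeR FDR = 7.6e-06) and *Prkaa2* by 0.40 (SE 0.12, edgeR FDR = 0.0081). *Prkab1* rose by little (log2 fold change 0.17 ± 0.07 SE, edgeR FDR = 0.037) and lost its call when any 1 of the 6 libraries compared was left out (edgeR FDR from 0.055 to 0.38), with unstranded counts (0.23) and with no filter (0.19). *Prkaa1* was not called, at -0.11 ± 0.06 (FDR = 0.15), and was called without untreated Lkb1-/- library 1 or 3 or wild-type library 3 (edgeR FDR 0.049, 0.023 and 0.022) and with unstranded counts (0.033). *Prkab2* (0.06 ± 0.16) and *Prkag3* (0.33 ± 0.61) were not called. Same-numbered libraries of different groups deviated together, so the number was also fitted as a block. With this block 5 members were called among 64.3% of all tested genes, *Prkaa1* being added (edgeR FDR = 0.033).

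After IL-1β the same comparison called 2 members among 57.4% of all tested genes. *Prkag1* was higher by nearly the same amount as in untreated cells (log2 fold change 0.87 ± 0.07 SE, edgeR FDR = 1.7e-09) and *Prkag2* lower (log2 fold change -0.34 ± 0.07 SE, edgeR FDR = 4.9e-04). *Prkaa2* was at -0.18 ± 0.12 (FDR = 0.22) and *Prkab2* at 0.36 ± 0.16 (FDR = 0.062). The count was 4 without IL-1β-treated Lkb1-/- library 3, which adds *Prkaa1* and *Prkab2* (edgeR FDR 0.017 and 0.050). *Prkab2* was also called without wild-type library 1 (0.028), and *Prkaa1* without wild-type library 3 (0.032). The *Prkab2* difference lay close to the threshold: it passed with DESeq2 (adjusted p = 0.035), DESeq2's size factors (edgeR FDR 0.046), upper quartile scaling (0.040), no filter (0.021), at least 10 counts in every library (0.040) and only the groups compared (0.038). *Prkab1* passed with upper quartile scaling (0.0017) or at least 10 counts (0.0048), and *Prkaa1* with unstranded counts (0.034). With the replicate block 4 members were called among 65.9% of all tested genes, *Prkab2* (edgeR FDR = 2.9e-04) and *Prkaa1* (0.016) being added.

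Many genes around *Prkag1* were also higher in Lkb1-/- MEFs. Of 64 tested genes within 1 Mb of it, 35 were called higher and 5 lower in untreated Lkb1-/- than in wild-type MEFs. Over all 17522 tested genes 5279 were called higher and 4519 lower in this comparison, 55.9% together. The median log2 fold change of the 64 was 0.76, against 0.40 for the 706 tested genes of chromosome 15 and 0.04 over all tested genes. *Prkaa1*, on the same chromosome, had 10 tested neighbours, of which 2 were called higher and 1 lower, with a median of 0.16. Around *Prkag2* 10 of 34 neighbours were called higher and 9 lower, with a median of 0.01. In the clones, against Lkb1-/- MEFs, the neighbours of *Prkag1* had medians of -0.06 in A1 and 0.15 in A2. Both lay below the medians of chromosome 15, 0.13 in A1 and 0.23 in A2. The neighbourhood was looked at after the *Prkag1* values were known, and its part in the *Prkag1* difference was not tested.

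**Figure D2:**
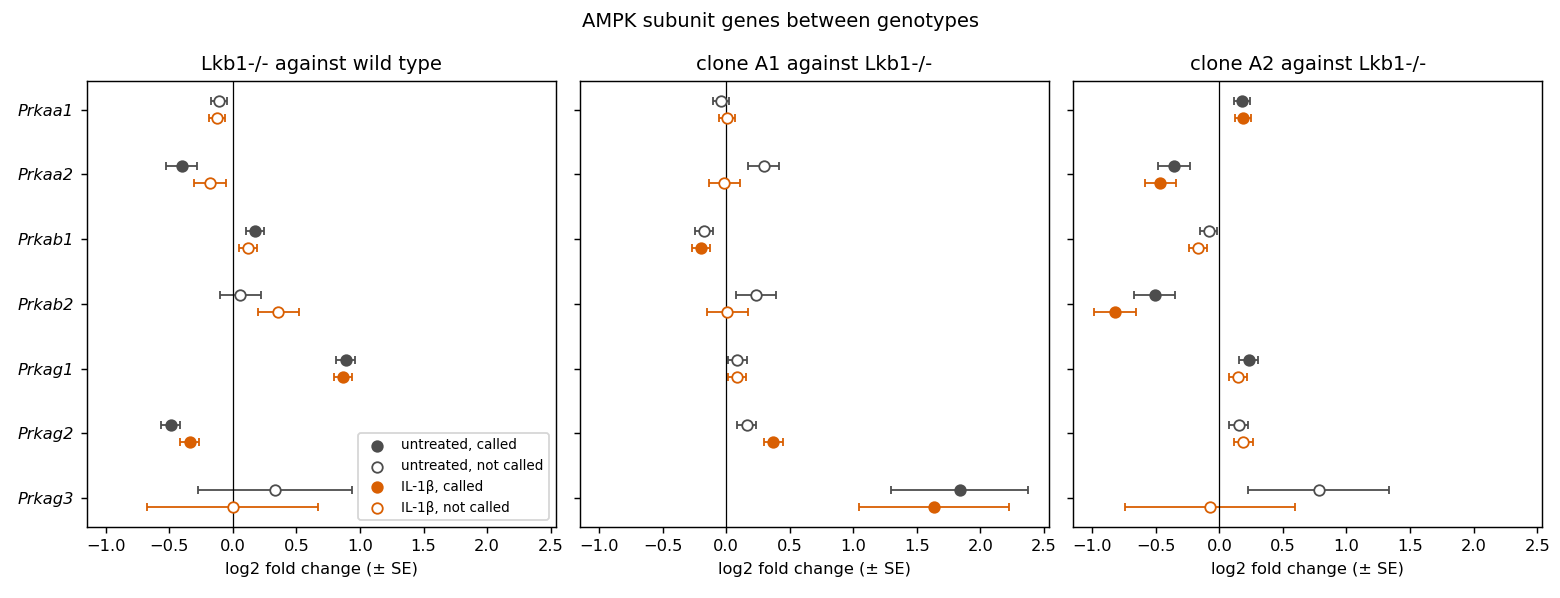
log2 fold change ± SE (x axis) of each subunit gene (y axis) in 3 comparisons between genotypes, untreated in grey and after IL-1β in orange; filled points passed an edgeR FDR of 0.05 over all tested genes. *Prkag1* is at 0.89 and 0.87 in Lkb1-/- against wild-type MEFs, and the called *Prkab2* points lie only in the panel of clone A2, at -0.51 and -0.82.

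To ask how the subunits changed when *Crtc2* was lost as well, each clone was compared with Lkb1-/- MEFs. In untreated clone A1 1 member was called among 35.3% of all tested genes: *Prkag3* was higher (log2 fold change 1.84 ± 0.54 SE, edgeR FDR = 0.011), at the low level given above. It lost the call without A1 library 1 (edgeR FDR 0.055) or without Lkb1-/- library 3 (0.060), which left no member called. *Prkaa2* (0.29 ± 0.12, FDR = 0.069) and *Prkab1* (-0.18 ± 0.07, FDR = 0.053) were just outside the threshold, and *Prkab1* was called without Lkb1-/- library 1 (edgeR FDR 0.046). *Prkab1* also passed with DESeq2 (adjusted p = 0.023) and 4 edgeR alternatives (FDR from 0.0095 to 0.032), and *Prkaa2* with 3 (0.017 to 0.035). With the replicate block 4 members were called among 48.1% of all tested genes: *Prkag3*, *Prkaa2* (edgeR FDR = 0.012), *Prkab1* (0.015) and *Prkab2*, higher by 0.23 (0.014). *Prkag1* was not called, with a difference of 0.09 ± 0.07 and a 95% interval of -0.06 to 0.24. After IL-1β 3 members were called in A1 among 36.7% of all tested genes. *Prkag2* was higher (log2 fold change 0.37 ± 0.07 SE, edgeR FDR = 4.6e-04), as was *Prkag3* (log2 fold change 1.63 ± 0.59 SE, edgeR FDR = 0.035), and *Prkab1* was lower (log2 fold change -0.20 ± 0.07 SE, edgeR FDR = 0.027). *Prkag3* and *Prkab1* both lost the call when IL-1β-treated A1 library 1 or 2 or Lkb1-/- library 2 or 3 was left out (edgeR FDR from 0.056 to 0.15 and from 0.061 to 0.12), and the *Prkag2* call held in all 6 omissions. *Prkab1* also lost it with unstranded counts (0.077) or no filter (0.13), and *Prkag3* with only the groups compared (0.051).

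In untreated clone A2 4 members were called against Lkb1-/- MEFs, among 32.3% of all tested genes. *Prkab2* (log2 fold change -0.51 ± 0.16 SE, edgeR FDR = 0.019) and *Prkaa2* (log2 fold change -0.36 ± 0.12 SE, edgeR FDR = 0.031) were lower, and *Prkag1* (log2 fold change 0.23 ± 0.07 SE, edgeR FDR = 0.018) and *Prkaa1* (log2 fold change 0.18 ± 0.06 SE, edgeR FDR = 0.031) higher. The calls were close to the threshold. *Prkaa2* lost its call without any 1 library but A2 library 2 (edgeR FDR from 0.057 to 0.12), *Prkab2* without A2 library 2 or 3 or Lkb1-/- library 1 or 2 (0.053, 0.16, 0.11 and 0.066), and *Prkaa1* without Lkb1-/- library 2 (0.062). *Prkag1* was not called with unstranded counts (edgeR FDR 0.33) or no filter (0.072), *Prkaa2* with unstranded counts (0.051), *Prkaa1* with no filter (0.21) or only the groups compared (0.052), and *Prkab2* with only the groups compared (0.051). After IL-1β 3 members were called in A2, among 32.8% of all tested genes. *Prkab2* fell by 0.82 in log2 units (SE 0.16, edgeR FDR = 5.0e-04) and *Prkaa2* by 0.46 (SE 0.12, edgeR FDR = 0.0061), and both calls held in all 6 omissions of 1 library. *Prkaa1* was higher (log2 fold change 0.19 ± 0.06 SE, edgeR FDR = 0.027), which did not hold without A2 library 3 (0.077) or Lkb1-/- library 1 (0.16), with no filter (0.16) or with only the groups compared (0.18). The count was 5 without A2 library 1, which added *Prkag1* and *Prkag2* (edgeR FDR 0.011 and 0.039). *Prkag2* was also called without A2 library 2 (0.049) or Lkb1-/- library 1 (0.041), and *Prkab1* without A2 library 3 (0.022) or Lkb1-/- library 1 (0.033). DESeq2 called both *Prkag2* and *Prkab1* (adjusted p = 0.038 and 0.041), and edgeR called *Prkag2* with DESeq2's size factors (0.049) and *Prkab1* with upper quartile scaling (0.013) or at least 10 counts (0.011). With the replicate block 6 members were called among 46.6% of all tested genes, *Prkag1* (edgeR FDR = 0.0078), *Prkab1* (0.019) and *Prkag2* (0.038) being added.

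The 2 clones share a genotype label and were compared directly. Untreated, 3 members were called between A2 and A1, among 32.5% of all tested genes, and after IL-1β 4 were called among 30.7%. *Prkab2* was lower in A2 in both states (log2 fold change -0.74 ± 0.16 SE, edgeR FDR = 0.0011 untreated; -0.83 ± 0.16, FDR = 4.8e-04 after IL-1β), and so was *Prkaa2* (log2 fold change -0.65 ± 0.12 SE, edgeR FDR = 3.4e-04 untreated; -0.45 ± 0.12, FDR = 0.0084 after IL-1β). *Prkaa1* was higher in A2 in both (0.22 ± 0.06, FDR = 0.0092; 0.18 ± 0.06, FDR = 0.033). *Prkag3* was lower in A2 after IL-1β (-1.71 ± 0.59, FDR = 0.034). After IL-1β the *Prkaa1* call was lost without A1 library 1 or 2 or A2 library 2 or 3 (edgeR FDR 0.14, 0.082, 0.061 and 0.10), and that of *Prkag3* without any 1 library but A2 library 1 (from 0.051 to 0.16). *Prkag2* was called without A1 library 2 (0.047) or A2 library 3 (0.029). The count was 2 without A1 library 1 or A2 library 2. With no filter *Prkaa1* was called in neither state (0.053 and 0.20), with unstranded counts not after IL-1β (0.057), and with only the groups compared the calls of *Prkaa1* and *Prkag3* after IL-1β were lost (0.11 and 0.061). *Prkag2* after IL-1β passed with DESeq2 (adjusted p = 0.047) and with at least 10 counts (edgeR FDR 0.037). Untreated, *Prkag3* passed in 3 alternatives (edgeR FDR from 0.030 to 0.045) and *Prkag1* with upper quartile scaling (0.039). With the replicate block 5 members were called untreated among 46.3% of all tested genes, *Prkag1* (edgeR FDR = 0.0093) and *Prkag3* (0.024) being added, and 5 after IL-1β among 44.4%, *Prkag2* being added (0.04). The difference in *Prkab2* and *Prkaa2* between the clones thus exceeded the spread between libraries, although both clones are labelled Lkb1-/-/Crtc2-/-.

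Against wild-type MEFs, which share the wild-type libraries with the comparisons above, untreated clone A1 had 4 members called among 55.4% of all tested genes and untreated clone A2 had 4 among 60.6%. After IL-1β the counts were 2 among 56.9% in A1 and 3 among 60.8% in A2. *Prkag1* was higher in all 4 comparisons, by 0.96 to 1.12 on the log2 scale (SE 0.07 each, largest edgeR FDR = 3.8e-10). *Prkag2* was lower in untreated A1 (log2 fold change -0.33 ± 0.07 SE, edgeR FDR = 6.8e-04) and untreated A2 (log2 fold change -0.34 ± 0.07 SE, edgeR FDR = 4.4e-04), and not called in either clone after IL-1β. *Prkag3* was higher in A1 both untreated (2.17 ± 0.56, FDR = 0.0022) and after IL-1β (1.63 ± 0.60, FDR = 0.024), the latter call being lost without A1 library 1 or wild-type library 2 or 3 (edgeR FDR 0.075, 0.11 and 0.086). *Prkaa2* and *Prkab2* were lower in A2 in both states, by 0.76 and 0.45 untreated (edgeR FDR = 1.7e-05 and 0.02). The *Prkab2* call was lost untreated without A2 library 3 or wild-type library 1 (0.10 and 0.12) or with upper quartile scaling (0.11), and after IL-1β without A2 library 2 or 3 or wild-type library 1 (0.070, 0.17 and 0.11). *Prkaa1* in untreated A1 (log2 fold change -0.15 ± 0.06 SE, edgeR FDR = 0.048) lost its call without any 1 library but wild-type library 3 (edgeR FDR from 0.074 to 0.12), with upper quartile scaling (log2 fold change -0.065, 0.18) and with no filter (0.11). Calls were gained in untreated A2 for *Prkag3* without wild-type library 3 (0.049), and after IL-1β in A1 for *Prkab2* without wild-type library 1 (0.026) and *Prkaa1* without A1 library 3 (0.030), and in A2 for *Prkag2* without wild-type library 3 (0.022). *Prkab2* in A1 after IL-1β passed in 6 further alternatives, DESeq2 (adjusted p = 0.035) and 5 of edgeR (FDR from 0.016 to 0.048), and in A2 after IL-1β it lost its call in 3 (from 0.053 to 0.10). *Prkaa1* in A1 after IL-1β passed with only the groups compared (0.046), *Prkag3* in untreated A2 with that setting (0.049) or no filter (0.034), and *Prkag2* in A2 after IL-1β with unstranded counts (0.032). Upper quartile scaling added *Prkaa1* in A2 in both states (0.0022 and 0.0032) and *Prkab1* in untreated A2 (0.0096), and at least 10 counts added *Prkaa1* in A2 after IL-1β (0.025). With the replicate block *Prkab2* was called higher in A1 both untreated (by 0.30, edgeR FDR = 0.0017) and after IL-1β (by 0.37, 2.2e-04), *Prkaa1* lower in A1 after IL-1β (0.02) and *Prkag3* higher in untreated A2 (0.033). The blocked counts were then 5 members in untreated A1 among 64.2% of all tested genes, 4 in A1 after IL-1β among 66.1% and 5 in untreated A2 among 68.6%.

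To compare the members of each pair directly, the log2 ratio of the less to the more abundant gene was taken per library from CPM per kilobase of exon. It was tested between genotypes over both treatments with a two-sided exact permutation of libraries within treatment (400 arrangements, smallest possible p 0.005), and the 12 p-values were adjusted by the Benjamini-Hochberg method. *Prkag2* over *Prkag1* fell by 1.29 from wild type to Lkb1-/- (6 libraries each, exact permutation p = 0.005, adjusted 0.01), and the ranges, -2.96 to -2.25 and -4.16 to -3.73, did not overlap. Among the *Lkb1*-deficient genotypes this ratio moved little: it was 0.18 higher in A1 than in Lkb1-/- and 0.19 lower in A2 than in A1 (exact permutation, adjusted p = 0.01 each, ranges overlapping), and A2 and Lkb1-/- differed by -0.02 (adjusted p = 0.8). With unstranded counts neither A1 difference passed (adjusted p 0.21 and 0.31).

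*Prkaa2* over *Prkaa1* was lower in A2 than in Lkb1-/- by 0.60 and lower than in A1 by 0.76, with no overlap (6 libraries each, exact permutation, adjusted p = 0.01 for both). Between Lkb1-/- and wild type it fell by 0.17 (exact permutation p = 0.03, adjusted 0.045). That call was lost in 10 of the 12 omissions of 1 library (adjusted p from 0.06 to 0.096), the exceptions being the IL-1β-treated libraries numbered 3 of the 2 genotypes, and the difference was -0.29 in untreated and -0.06 in IL-1β-treated libraries. With labels exchanged only within a replicate number it had an adjusted exact permutation p of 0.13. Between A1 and Lkb1-/- the difference was 0.16 (adjusted p = 0.096), made up of 0.33 in untreated and -0.02 in IL-1β-treated libraries, and it passed without IL-1β-treated A1 library 1 (0.045). *Prkab2* over *Prkab1* was lower in A2 than in A1 by 0.86 with no overlap (exact permutation, adjusted p = 0.01). It was lower in A2 than in Lkb1-/- by 0.55 (adjusted p = 0.043), a call lost without untreated Lkb1-/- library 1 or 2, IL-1β-treated Lkb1-/- library 1 or 2, untreated A2 library 3 or IL-1β-treated A2 library 2 or 3 (adjusted p from 0.053 to 0.069). It did not pass between A1 and Lkb1-/- (0.31, adjusted p = 0.067, but 0.026 without IL-1β-treated Lkb1-/- library 1 and 0.047 within replicate numbers) or between Lkb1-/- and wild type (0.06, adjusted p = 0.70).

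**Figure D3:**
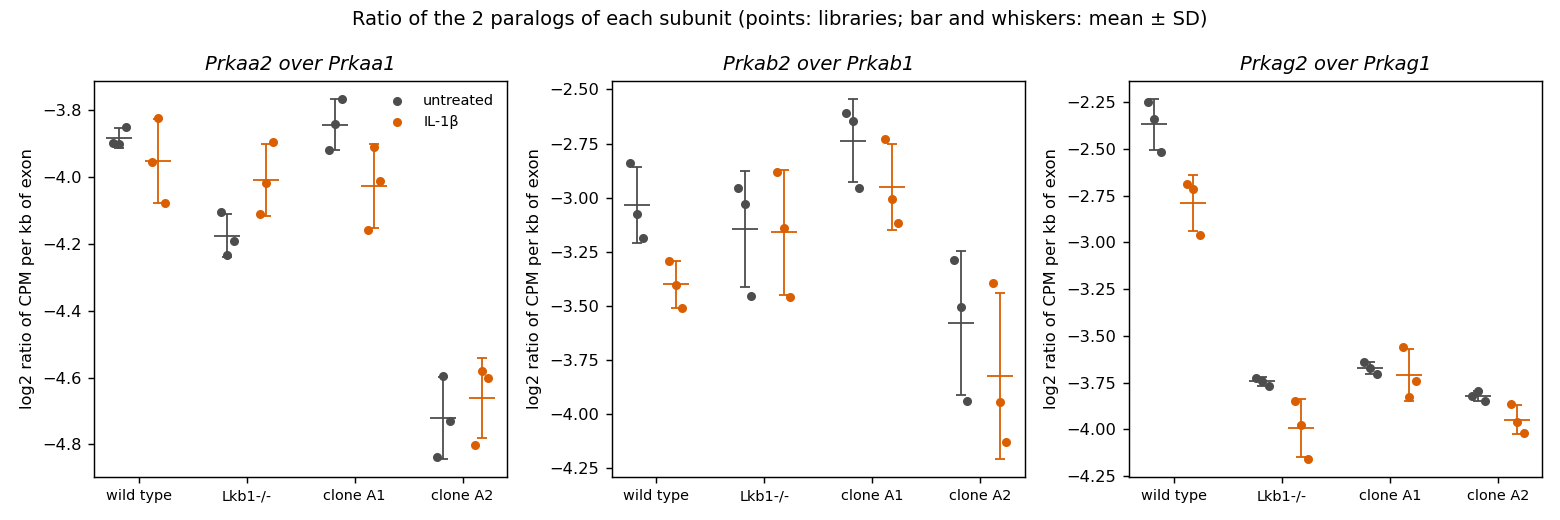
log2 ratio of CPM per kilobase of exon for the 2 paralogs of the α and β subunits and for *Prkag2* over *Prkag1* (y axes), by genotype, untreated in grey and IL-1β in orange; points are libraries and bars with whiskers are the mean ± SD of 3. The γ ratio lies between -2.96 and -2.25 in wild-type libraries and between -4.16 and -3.56 in the others, and the α ratio is lowest in clone A2.

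IL-1β, an inflammatory cytokine that acts through NF-κB and mitogen-activated kinases, went with called differences in few subunit genes. In wild-type MEFs 1 member was called among 2.26% of all tested genes: *Prkag2* fell by 0.40 on the log2 scale, from 29.7 ± 1.47 (SD, n = 3) to 22.5 ± 1.72 (SD, n = 3) CPM (SE of the log2 change 0.07, edgeR FDR = 0.0026), and the call held when any 1 library was left out. With a block for the replicate number within each genotype 3 members were called there among 16.1% of all tested genes, *Prkag2*, *Prkab1* (higher, edgeR FDR = 0.014) and *Prkab2* (lower, 0.044). Between same-numbered wild-type libraries *Prkab2* moved by -0.23, -0.22 and -0.23 on the log2 scale. In Lkb1-/- MEFs no member was called among 4.74% of all tested genes. *Prkag2* was at -0.25 ± 0.07 (FDR = 0.055), the 1 member with an unadjusted p under 0.05 in edgeR, and DESeq2 called it (adjusted p = 0.021). It was called with the replicate block (edgeR FDR = 0.018, 14.8% of all tested genes called) and with the block within genotypes (0.0035, 22.6%). In clone A1 no member was called by edgeR, with or without a block, or by DESeq2, among 1.99% of all tested genes without the block (0 with an unadjusted p under 0.05), and *Prkag2* was at -0.04 ± 0.07 with a 95% interval of -0.20 to 0.11. In clone A2 no member was called without a block, among 5.68% of all tested genes, and 3 with the replicate block, among 17.9%: *Prkab2*, *Prkag2* and *Prkag3* were lower (edgeR FDR = 0.04, 0.034 and 0.014), as they were with the block within genotypes (0.027, 0.0083 and 0.0059, among 26%). All 3 same-numbered A2 pairs moved down for each of these genes, *Prkab2* by -0.13, -0.40 and -0.20. Without the block 2 members had an unadjusted p under 0.05 in edgeR, *Prkag2* at -0.22 ± 0.07 (FDR = 0.093), which DESeq2 called (adjusted p = 0.047), as did edgeR with unstranded counts (FDR 0.049), and *Prkag3* at -1.58 ± 0.59 (FDR = 0.14), which edgeR called without IL-1β-treated A2 library 1 (FDR 0.041) or with no filter (0.010).

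The responses were also compared with each other, since a call in one genotype and not in another does not show a difference. Between Lkb1-/- and wild-type MEFs no member's response was called different, in a comparison that called 0.245% of all tested genes. The same held for A1 against Lkb1-/- MEFs (0.0285% of genes called) and A2 against Lkb1-/- MEFs (0% called); in all 3 comparisons edgeR gave 0 members with an unadjusted p under 0.05, and DESeq2 and both blocked fits called 0. The *Prkag2* response differed by 0.15 ± 0.10 between Lkb1-/- and wild type, with a 95% interval of -0.07 to 0.37, and by 0.21 ± 0.10 between A1 and Lkb1-/-, with an interval of -0.01 to 0.43 (edgeR FDR = 1.0 for both). For *Prkag1* the interval between Lkb1-/- and wild type was -0.23 to 0.19.

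Other genes of the pathway were counted in 3 lists. The upstream kinases and their partners numbered 8, all tested: in untreated Lkb1-/- against wild-type MEFs 1 rose and 5 fell. The largest changes were in *Stk11* itself (-2.31 ± 0.07 SE, edgeR FDR = 1.1e-16) and *Cab39l*, which encodes an MO25 scaffold of the LKB1 complex, from 74.9 ± 3.74 to 40.9 ± 0.665 CPM (log2 fold change -0.87, edgeR FDR = 2.0e-08). Of 5 genes for proteins that act on AMPK at the lysosome, 1 rose and 3 fell. Among them *Flcn* (folliculin) fell from 44.9 ± 0.743 to 31.3 ± 1.97 CPM (log2 fold change -0.52, edgeR FDR = 4.9e-06) and its partner *Fnip1* from 132.9 ± 5.45 to 103.5 ± 9.43 CPM (log2 fold change -0.36, edgeR FDR = 0.0016). Of 15 genes for AMPK substrates, 3 rose and 6 fell. *Tbc1d4*, a regulator of glucose transporter traffic, fell from 24.9 ± 4.47 to 8.71 ± 0.930 CPM (edgeR FDR = 8.0e-07) and *Acacb*, an acetyl-CoA carboxylase, from 9.26 ± 2.97 to 3.81 ± 0.764 CPM (edgeR FDR = 3.3e-04; SD, n = 3 throughout). The shares called, 75%, 80% and 60%, stand beside 55.9% of all tested genes, and the list medians, -0.24, -0.32 and -0.18, beside 0.04.

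Against Lkb1-/- MEFs, untreated clone A1 had 2 of the 8 upstream genes higher and 2 lower, 2 of the 5 lysosomal genes higher and 2 lower, and 2 of the 15 substrates higher and 5 lower. These shares, 50%, 80% and 46.7%, stand beside 35.3% of all tested genes. Untreated clone A2 had 1 higher and 2 lower, 2 and 0, and 2 and 0 of the same lists, shares of 37.5%, 40% and 13.3% beside 32.3%. *Flcn* and *Fnip1* were higher in both clones, at 42.6 ± 1.31 and 142.6 ± 5.45 CPM in A1 and at 48.2 ± 5.48 and 161.0 ± 17.9 CPM in A2. The lists were counted only in fits without a replicate block. For IL-1β the block within genotypes raised the share of all tested genes called from 2.26% to 16.1% in wild-type MEFs. The rise was from 4.74% to 22.6% in Lkb1-/- and from 5.68% to 26% in A2. The list counts for IL-1β therefore hold only for fits without that block. With IL-1β 0 of the 5 lysosomal genes were called in any genotype (0 with an unadjusted p under 0.05 in edgeR, 0 by DESeq2), and of the 8 upstream genes 1 in wild-type MEFs (12.5%, beside 2.26% of all tested genes) and 0 in the others, where 1, 0 and 3 in Lkb1-/-, A1 and A2 MEFs had an unadjusted p under 0.05 and DESeq2 called 0, 0 and 1. The 1 in wild type was *Camkk1*, lower in wild-type MEFs and at -0.40 ± 0.16 (0.2) in Lkb1-/- MEFs, -0.20 ± 0.16 (0.76) in A1 and -0.51 ± 0.15 (0.058) in A2 (log2 fold change ± SE, with edgeR FDR). Of the 15 substrates 0 were called in wild-type MEFs (3 with an unadjusted p under 0.05 in edgeR, 1 by DESeq2), 4 in Lkb1-/- MEFs (26.7%, beside 4.74% of all tested genes), 1 in A1 (6.67%, beside 1.99%) and 5 in A2 (33.3%, beside 5.68%). *Pfkfb3*, which encodes an enzyme that raises glycolysis, was higher in all 3 *Lkb1*-deficient genotypes and *Foxo3*, a transcription factor gene, in Lkb1-/- and A2. *Acaca*, a gene of fatty acid synthesis, was lower in Lkb1-/- and A2, and *Pfkfb2* was lower in A2. In wild-type MEFs *Pfkfb3* was at 0.38 ± 0.10 SE (edgeR FDR = 0.055), and its response differed by 0.10 ± 0.15 between Lkb1-/- and wild type (edgeR FDR = 1.0). *Foxo3* was at 0.77 in Lkb1-/- and 0.70 in A2 (edgeR FDR 0.030 and 0.0496), beside 0.61 in A1 and 0.41 in wild type (0.17 and 0.47). Its response differed by 0.36 ± 0.29 SE between Lkb1-/- and wild type and was not called. Between Lkb1-/- and wild-type MEFs edgeR called 0 substrate responses different (2 with an unadjusted p under 0.05, 1 called by DESeq2), and between either clone and Lkb1-/- MEFs edgeR and DESeq2 called 0 (0 with an unadjusted p under 0.05).

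**Figure D4:**
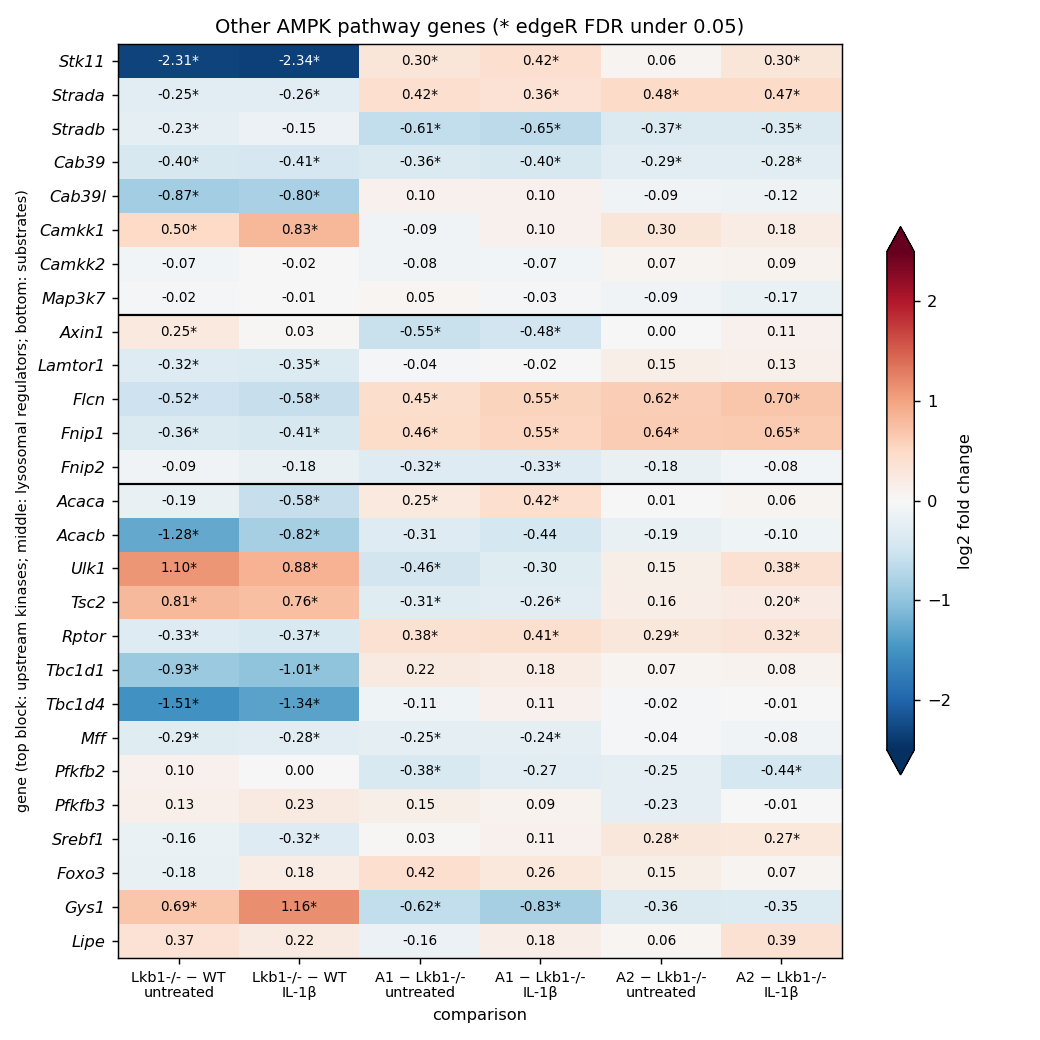
log2 fold change of other AMPK pathway genes (y axis, in 3 blocks) in 6 comparisons between genotypes (x axis); red is higher, blue is lower, and a star marks an edgeR FDR under 0.05 over all tested genes. *Stk11* is at -2.31 in untreated Lkb1-/- against wild-type MEFs, and *Flcn* and *Fnip1* are blue there and red in both clones.

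For the 3 members whose group means ranged most, the genes with the most similar log2 CPM over the 24 libraries were listed from 11584 expressed genes that are no members. For *Prkag1* these were *S100a1*, *Cdkn1c* and *Slc2a10* (Pearson r = 0.991, 0.990 and 0.990), none of them on its chromosome. For *Prkab2* they were *Smad7*, *Ube2d2a* and *Wincr1* (r = 0.893, 0.878 and 0.871), and for *Prkag3* they were *Zfand1*, *Hoxa6* and *Rfx5* (r = 0.871, 0.866 and 0.853). The libraries of a group share cells and treatment, so these values mostly describe 8 group means and carry no test.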

How the data were processed

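Counts of read pairs per gene were deposited for 24 libraries. Per the labels and the study's methods, the authors trimmed reads with Trim Galore 0.6.0 and aligned them with STAR 2.7.8a to GRCm38 (mm10) with GENCODE vM24, without normalization. The labels and the methods name different library kits, so the kit was not settled. Of the strand settings deposited, the second was used, which held between 95.5% and 96.0% of stranded pairs. Pairs that name no gene (26.7% to 34.4%) were left out. Symbols and exon lengths came from GENCODE M21 of the same build (55230 of 55471 identifiers matched).

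Genes were filtered with filterByExpr (minimum count 10, minimum total 15), scaled by TMM and tested with edgeR 4.0.16 (R 4.3.3), the quasi-likelihood test on group means of all 24 libraries, with Benjamini-Hochberg FDR over 17522 genes and a threshold of 0.05. SE is the log2 fold change over the root of F, and a 95% interval is taken from it with the t quantile of the test's degrees of freedom. The scripts were tested on simulated data. DESeq2 1.42.0 was an alternative, as were other scalings, filters, the replicate number as a block, and omission of each library. No 2 libraries held identical counts. Deviations from the group means of same-numbered libraries correlated over 0.1 in all 84 pairs over the 11355 genes with mean log2 CPM above 1 (lowest 0.12), where 24 of 24 libraries correlated best with their own number, and in 69 of 84 over all 17522 tested genes (lowest 0.036). The labels do not say what a number stands for. The numbers were taken to pair the libraries on the first of these gene sets. Values with the replicate block stand beside the results for members and ratios that they change. The pathway lists and the neighbours were counted without the block.

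The members and gene lists were chosen with earlier results of these data known. The rule for named genes took all 7 members, *Stk11* and *Crtc2*, the 2 genes of each pathway list with the largest called change between untreated Lkb1-/- and wild-type MEFs, and the 3 genes most like each of the 3 members that ranged most; other names were chosen after their values were seen. Of the pathway lists 1 gene, which the counts include, is not reported here.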

Additional observations from a re-analysis of the deposited data

How the results depend on the processing

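No called value changed sign among the alternatives, and the *Prkag1*, *Prkag2* and *Prkaa2* calls in untreated Lkb1-/- against wild-type MEFs held in all of them. Of 2147 recomputed log2 fold changes 1979 kept their side of the threshold, 74 lost a call and 94 gained one, and 137 of those called in neither fit changed sign. The counts of members called, untreated and against Lkb1-/- MEFs, moved in A1 from 1 to 2 with DESeq2's size factors, DESeq2 or at least 10 counts in every library (which leaves 6 members), and to 3 with upper quartile scaling or only the groups compared. In A2 they moved from 4 to 2 with unstranded counts, no filter or only the groups compared. After IL-1β, Lkb1-/- against wild type moved from 2 to 4 with upper quartile scaling or at least 10 counts, A2 against Lkb1-/- from 3 to 5 with DESeq2, A1 against wild type from 2 to 4 and A2 against A1 from 4 to 2 with only the groups compared. For IL-1β itself, Lkb1-/- moved from 0 to 1 with DESeq2, and A2 from 0 to 1 with DESeq2, unstranded counts or no filter. The cause was not tested. The share of all tested genes called was not computed for these alternatives or for the omissions of 1 library. A move of the members and a move of all calls can therefore not be told apart in these counts. Upper quartile scaling moved the median of all genes by 0.103 and 0.110 in IL-1β-treated Lkb1-/- and A1 against wild type.

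With unstranded counts 4 ratio differences lost their call: α in Lkb1-/- against wild type (-0.18, adjusted p = 0.06), β in A2 against Lkb1-/- (-0.55, 0.06), and γ in A1 against Lkb1-/- (0.14, 0.21) and A2 against A1 (-0.10, 0.31), all exact permutation tests. In untreated libraries alone the α ratio differed by -0.29 in Lkb1-/- against wild type, 0.33 in A1 against Lkb1-/- and -0.88 in A2 against A1, and in IL-1β-treated libraries alone by -0.055, -0.018 and -0.63 (an exact permutation of 3 against 3 cannot go below 0.1).

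With the replicate number as a block, untreated, members called went from 1 to 4 in A1 against Lkb1-/- and from 3 to 5 in A2 against A1. After IL-1β they went from 2 to 4 in Lkb1-/- against wild type, from 3 to 6 in A2 against Lkb1-/- and from 2 to 4 in A1 against wild type. For IL-1β itself they went from 0 to 1 in Lkb1-/- (*Prkag2*) and from 0 to 3 in A2 (*Prkab2*, *Prkag2*, *Prkag3*). A block within each genotype gave 3 in wild type, 1 in Lkb1-/- and 3 in A2. With the block the α ratio in Lkb1-/- against wild type (-0.17) had an adjusted exact permutation p of 0.13, and the β ratio in A1 against Lkb1-/- (0.31) one of 0.047. The block left the response differences at 0 members called. Beside the calls given in the report, neither block changed a member's call.

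When 1 library was left out in turn, members called lay, untreated, between 0 and 2 in A1 and between 1 and 3 in A2 against Lkb1-/-. After IL-1β they lay between 2 and 4 in Lkb1-/- against wild type, 1 and 3 in A1 and 3 and 5 in A2 against Lkb1-/-, 1 and 3 in A1 against wild type, 2 and 4 in A2 against A1, and 0 and 1 for IL-1β in A2. The ratio differences lay between -0.21 and -0.14 (α, Lkb1-/- against wild type), 0.13 and 0.19 (α, A1 against Lkb1-/-), 0.23 and 0.38 (β, A1 against Lkb1-/-) and -0.65 and -0.46 (β, A2 against Lkb1-/-). Depth limits *Prkag3*, with 2 to 72 counts a library, and 3 libraries a group limit small changes.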
